A study of Mus musculus with 30 samples.

Results

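Mitochondrial ribosomal proteins are encoded in the nucleus, made in the cytosol and imported into mitochondria, where they join 2 mitochondrially encoded ribosomal RNAs to form the mitoribosome. The large subunit joins amino acids and carries the exit tunnel, and the small subunit binds the messenger RNA and decodes it. This ribosome makes the hydrophobic subunits of the respiratory chain that the mitochondrial genome encodes, so the respiratory capacity of glia depends on both genomes. Some of its proteins have bacterial counterparts and others occur only in mitochondria.

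Genes were taken as members where the deposited annotation lists them as protein-coding and the symbol starts with Mrpl or Mrps and a digit. 80 symbols matched the pattern, 2 pseudogenes were dropped, and 78 genes of the 30952 in the table remained, 49 with a large subunit symbol and 29 with a small subunit symbol. The symbol does not always give the place: the Mrps18a and Mrps30 proteins sit in the large subunit, and the Mrps36 protein is a component of the 2-oxoglutarate dehydrogenase complex. The exons of a member summed to 607 to 8631 bases, with a median of 2394. 42 of the 78 are marked in the annotation as confounded with another gene, 37 overlap another gene, and 14 have 1 or more pseudogenes in the table (22 pseudogenes in all), so reads of these members may be shared. Mrpl46 and Mrps11 overlap by 413 bases at their starts on chromosome 7, from 78783119 to 78783531 (GRCm38).

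RNA was sequenced from microglia and astrocytes of the spinal cord in experimental autoimmune encephalomyelitis (EAE), a mouse model of multiple sclerosis in which T cells attack myelin. The mice were C57BL/6: 4 naive mice, 6 with EAE given vehicle (EAE-vehicle) and 5 with EAE given the RIPK1 kinase inhibitor GSK'547 (EAE-RIPK1inh), which makes 15 libraries per cell type and 30 in all. Mice with EAE were females of 8 to 10 weeks that received the MOG peptide 35 to 55 in complete Freund's adjuvant, and pertussis toxin. The sources used here do not give the sex of the naive mice. Dosing began near a clinical score of 1 and ran for 3 days by oral gavage, with GSK'547 at 50 mg/kg BID or with 20% Captisol. The naive group thus differs from the others by disease, by the adjuvant and toxin, and by gavage. Microglia were sorted as CD11b and CX3CR1 positive cells with intermediate CD45, and astrocytes as GLAST positive cells without CD11b, CD45 or CD140a. The comparisons ask what EAE does in each cell type and which of that depends on RIPK1 kinase.

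Levels are log2 FPKM as the authors quantile-normalized them, a measure that divides a gene's fragments by its exon length and the library's size. Levels of different genes can thus be compared per length, but only roughly where reads may be shared with another gene. A gene was called higher or lower where its fold change passed 1.5 and its unadjusted limma p was under 0.05, the study's cutoff, and values adjusted over all genes are given beside. The number of genes with signal ran from 6728 to 22981 per library, and 4 libraries lay under 10000: naive microglia 4, naive astrocytes 2, EAE-vehicle astrocytes 1 and EAE-RIPK1inh astrocytes 5. In these 4, 9, 11, 23 and 8 members had no signal, in that order, against at most 5 in any other library, and the counts of called members are given with and without them. The naive microglia averaged 10.18 to 10.71 over 10 microglia markers and 0.99 to 1.81 over 8 astrocyte markers, and the naive astrocytes 0.94 to 2.42 and 9.32 to 9.76 over the same lists.

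The promoters of some members are shown first. They are the 250 bases before the RefSeq start (GRCm38.p6, read 5′ to 3′ on the gene's strand) of 5 of the 6 members with an adjusted p under 0.05 in EAE microglia, and of Mrps11, the member whose start Mrpl46 overlaps. Mrpl20 is at chr4:155802628-155802877, Mrpl30 at chr1:37890227-37890476, Mrpl51 at chr6:125191950-125192199 and Mrpl57 at chr14:57825989-57826238, all on the plus strand. Mrps11 is at chr7:78782881-78783130 on the plus strand, and Mrps12 at chr7:28741822-28742071 on the minus strand. Capitals mark matches, on either strand, to GCGCANGCG (NRF1), CCGGAAG (ETS factors such as GABP) or AAGATGGCG (YY1), sequences bound by factors known for nuclear genes of mitochondrial proteins.
Mrpl20: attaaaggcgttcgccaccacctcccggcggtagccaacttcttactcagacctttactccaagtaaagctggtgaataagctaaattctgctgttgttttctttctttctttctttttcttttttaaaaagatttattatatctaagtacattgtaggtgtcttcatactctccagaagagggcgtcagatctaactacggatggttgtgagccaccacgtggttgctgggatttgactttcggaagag
Mrpl30: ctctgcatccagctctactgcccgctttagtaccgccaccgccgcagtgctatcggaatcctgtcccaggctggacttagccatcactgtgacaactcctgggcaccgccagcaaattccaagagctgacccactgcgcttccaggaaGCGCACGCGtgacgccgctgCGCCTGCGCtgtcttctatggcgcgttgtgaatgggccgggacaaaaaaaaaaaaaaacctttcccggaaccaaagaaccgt
Mrpl51: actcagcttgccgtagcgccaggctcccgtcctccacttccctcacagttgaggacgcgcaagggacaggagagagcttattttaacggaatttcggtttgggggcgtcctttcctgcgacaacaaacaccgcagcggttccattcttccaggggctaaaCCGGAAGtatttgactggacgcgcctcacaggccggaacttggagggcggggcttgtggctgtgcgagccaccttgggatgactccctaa
Mrpl57: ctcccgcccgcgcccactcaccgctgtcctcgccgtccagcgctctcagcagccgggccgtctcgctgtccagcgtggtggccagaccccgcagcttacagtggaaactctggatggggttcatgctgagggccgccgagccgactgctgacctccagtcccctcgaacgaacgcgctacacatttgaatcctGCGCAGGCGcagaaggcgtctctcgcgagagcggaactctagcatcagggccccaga
Mrps12: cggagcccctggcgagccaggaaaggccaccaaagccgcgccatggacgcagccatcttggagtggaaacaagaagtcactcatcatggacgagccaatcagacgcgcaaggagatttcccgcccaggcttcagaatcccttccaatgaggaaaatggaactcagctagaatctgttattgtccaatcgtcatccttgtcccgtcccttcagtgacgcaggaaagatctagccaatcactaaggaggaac
Mrps11: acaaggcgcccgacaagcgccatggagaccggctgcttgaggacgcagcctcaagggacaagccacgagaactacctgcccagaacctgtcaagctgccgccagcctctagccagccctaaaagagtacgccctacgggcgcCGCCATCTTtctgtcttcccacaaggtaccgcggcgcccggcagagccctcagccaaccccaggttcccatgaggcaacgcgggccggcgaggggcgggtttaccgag

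Windows of 250 bases before and 50 after the start were found for 69 of the 78 members, 75 windows in all. An NRF1 match lay in 16 of these windows (21.3%), against 10.2% of the windows of all protein-coding genes in the table and 6.25% of all windows. An ETS match lay in 26 (34.7%), against 13.5% and 8.86%. A YY1 match lay in 8 (10.7%), against 2.21% and 1.40%. The CCAAT box was found in 40.0% of the members' windows and 37.4% of all windows, and the E-box CACGTG in 9.33% and 7.15%. Among the promoters above, Mrpl30 holds NRF1 matches 102 and 82 bases before the start, Mrpl57 an NRF1 match at 57 bases, Mrpl51 an ETS match at 90 bases and Mrps11 a YY1 match at 108 bases. Mrpl20 holds no NRF1, ETS or YY1 match, and the ETS matches of Mrps12 and Mrpl57 begin 1 and 4 bases after the start, past the bases shown. A match is a description of letters, not of binding.

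In EAE microglia, 29 of the 78 members rose against naive microglia (37.2%), and 61 had a fold change above zero. Of all 28958 genes tested, 6.13% were called higher, and of the 10413 genes with a mean log2 FPKM of at least 1, a class that holds all members, 16.0% were. No member was called lower, against 5.86% of all genes and 12.9% of those with a mean of at least 1; in limma, 29 members had an unadjusted p under 0.05, and each of these was higher. The median log2 fold change was 0.69 over the members and 0.02 over genes with a mean of at least 1. 6 members passed an adjusted p of 0.05 (7.69%), against 2.37% of all genes and 6.53% of those with a mean of at least 1 that did so and were higher: Mrpl20, Mrpl57, Mrpl51, Mrpl54, Mrpl30 and Mrps12. The count was 21 without naive microglia 3 and 27 without the libraries of little signal, and the median 0.48 without naive microglia 3.

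Genes of both subunits rose. 17 of 49 large subunit genes (34.7%) and 12 of 29 small subunit genes (41.4%) rose, with medians of 0.72 and 0.66. The mean over the large subunit genes was 4.55 ± 0.28 in naive microglia (SD, n = 4), 5.21 ± 0.17 in EAE-vehicle (n = 6) and 4.97 ± 0.30 in EAE-RIPK1inh (n = 5). The mean over the small subunit genes was 4.39 ± 0.37, 4.99 ± 0.22 and 4.70 ± 0.25 in the same order. For both subunits the EAE-vehicle libraries lay above every naive library, at 5.05 to 5.46 against 4.18 to 4.87 for the large and 4.76 to 5.29 against 3.91 to 4.72 for the small subunit, while the EAE-RIPK1inh libraries overlapped both groups. The large subunit mean exceeded the small one by 0.16 ± 0.32 in naive microglia, 0.23 ± 0.10 in EAE-vehicle and 0.26 ± 0.10 in EAE-RIPK1inh, differences between groups that are smaller than the spread in naive microglia.

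**Figure D1:**
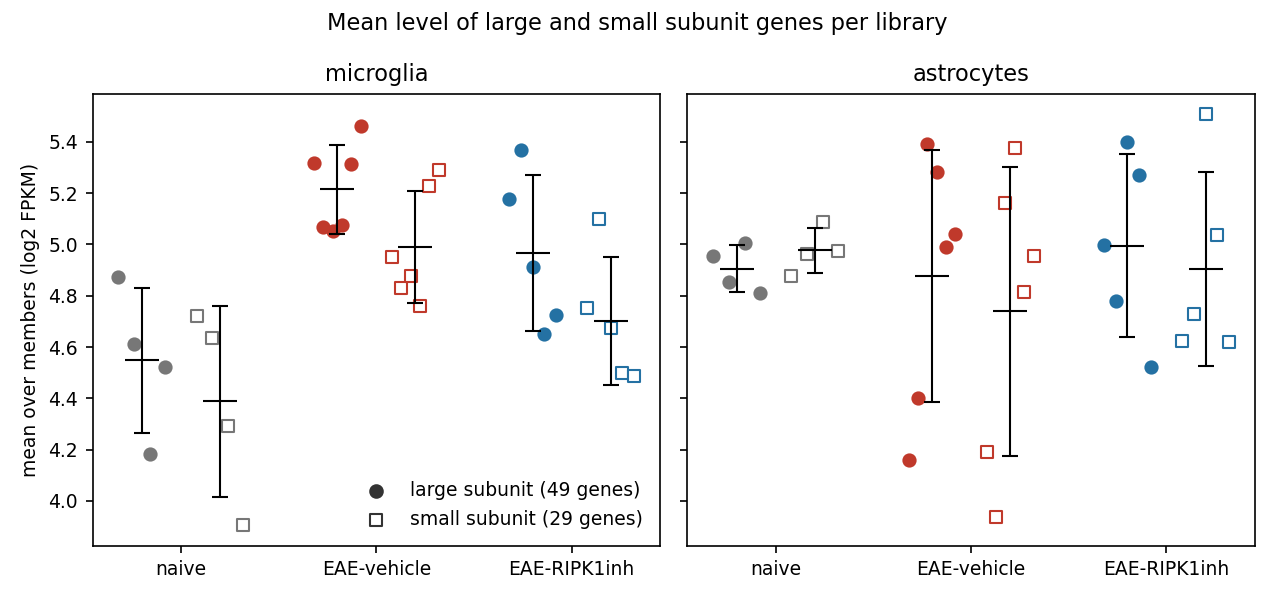
Mean log2 FPKM over the 49 large subunit genes (filled circles) and the 29 small subunit genes (open squares) in each library, for naive, EAE-vehicle and EAE-RIPK1inh mice, with the mean and SD of each group in black. The EAE-vehicle microglia lie above the naive microglia for both subunits, while the astrocyte groups overlap.

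Within the small subunit, 11 of the 16 genes with bacterial counterparts rose, with a median of 0.88 and each of the 16 above zero, against 0 of the 10 that occur only in mitochondria, with a median of 0.09 and 0 at an unadjusted limma p under 0.05. The difference between these 2 classes was not tested, and the list behind them was chosen with earlier results known. In the large subunit, 9 of 30 genes with bacterial counterparts (median 0.69) and 8 of 21 mitochondria-specific genes (median 0.83) rose. Of the structural regions, 2 of 7 genes of the central protuberance rose (median 0.83), 1 of 7 at the tunnel exit (median -0.05), 1 of 4 of the stalk and its base (median 0.24) and 3 of 8 of the small subunit head (median 0.55). By the annotation's mark for confounding, 18 of the 36 not marked as confounded rose (median 0.81) and 11 of the 42 marked (median 0.45). By promoter motif, 6 of 16 members with an NRF1 match and 20 of 53 without it rose, 10 of 26 with and 16 of 43 without an ETS match, and 3 of 8 with and 23 of 61 without a YY1 match.

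**Figure D2:**
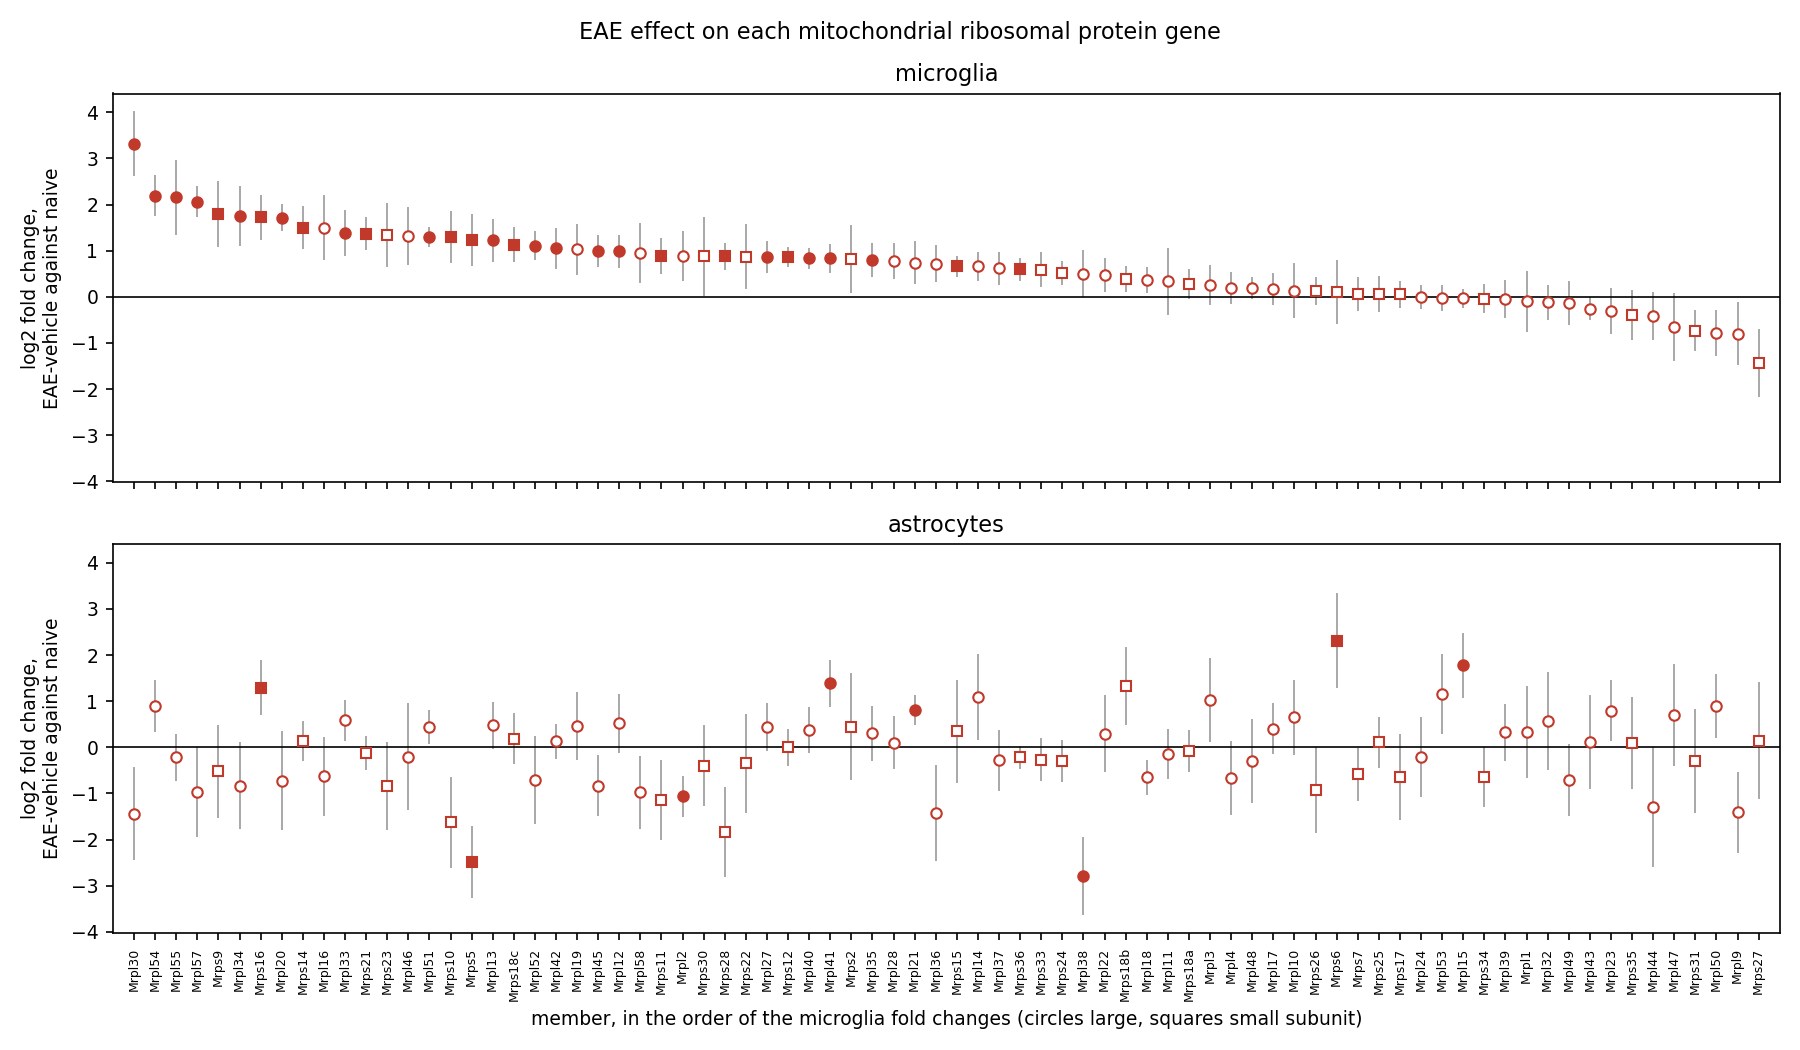
Log2 fold change (EAE-vehicle against naive, with its standard error) of each of the 78 members in microglia and astrocytes, in the order of the microglia values, with circles for large and squares for small subunit genes and filled symbols for called members. Filled symbols stand above zero in the microglia panel, and the astrocyte panel holds filled symbols on both sides.

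The largest rise was that of Mrpl30 (ENSMUSG00000026087, chromosome 1, 37890477-37898535, plus strand), a large subunit protein with a bacterial counterpart. Its 4 naive microglia stood at 5.26, 3.54, 4.55 and 0.00, and the EAE-vehicle microglia at 6.47 to 6.89 with a median of 6.65. The groups did not overlap, and the log2 fold change was 3.32 ± 0.71 (SE), adjusted p = 0.0141 in limma, with 6 of 6 EAE-vehicle libraries above the naive mean. Without naive microglia 4, where it had no signal, the value was 2.21. The EAE-RIPK1inh microglia, at 6.74, 6.69, 6.80, 6.43 and 6.54, lay within the EAE-vehicle range or just under it. 2 pseudogenes of Mrpl30 are in the table, and each passed a log2 of 1 in 1 library only.

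Mrpl57, a mitochondria-specific protein of the large subunit (ENSMUSG00000021967, chromosome 14, 57826234-57829296, plus strand), stood at 4.57, 3.38, 4.19 and 3.09 in naive microglia. In EAE-vehicle it ran from 5.30 to 6.42 with a median of 5.83, above every naive library, a log2 fold change of 2.06 ± 0.33 (limma, adjusted p = 0.0019, 6 of 6 libraries). In EAE-RIPK1inh microglia it was 6.07, 5.87, 5.83, 5.05 and 5.25, also above the naive libraries. Mrpl20 (ENSMUSG00000029066, chromosome 4, 155802878-155809975, plus strand), whose bacterial counterpart is needed early in large subunit assembly, stood at 4.95, 3.98, 4.42 and 3.41 in naive microglia. Its EAE-vehicle values ran from 5.52 to 6.54 with a median of 5.81, a rise of 1.72 ± 0.29 on the log2 scale (limma, adjusted p = 0.0024, 6 of 6 libraries). The EAE-RIPK1inh microglia held it at 5.94, 5.90, 6.39, 5.63 and 5.64. Neither gene was called with the inhibitor, and 2 of the 5 EAE-RIPK1inh libraries lay under the lowest EAE-vehicle value for Mrpl57.

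Mrpl54, another mitochondria-specific large subunit protein (ENSMUSG00000034932, chromosome 10, 81264713-81266934, minus strand), stood at 4.16, 3.50, 5.21 and 2.22 in naive microglia and at 5.12 to 6.50 with a median of 6.02 in EAE-vehicle. Naive microglia 3 overlapped the lowest EAE-vehicle library, and the log2 fold change was 2.19 ± 0.44 (limma, adjusted p = 0.00987, 6 of 6 libraries). Mrpl51 and Mrps12, named here after their values were seen because they passed the adjusted threshold, varied less between libraries. Mrpl51, a mitochondria-specific large subunit protein (ENSMUSG00000030335, chromosome 6, 125191801-125196269, plus strand), was at 4.58, 5.00, 5.16 and 4.31 in naive microglia and at 5.58 to 6.33 in EAE-vehicle, a log2 fold change of 1.30 ± 0.22 with no overlap (limma, adjusted p = 0.00315, 6 of 6 libraries). It is marked as confounded and has 1 pseudogene in the table. Mrps12, the counterpart of the bacterial decoding-centre protein that streptomycin resistance maps to (ENSMUSG00000045948, chromosome 7, 28739641-28741820, minus strand), was at 4.87, 4.96, 5.43 and 5.75 in naive microglia and at 5.74 to 6.37 with a median of 6.13 in EAE-vehicle, a log2 fold change of 0.87 ± 0.22 (limma, adjusted p = 0.0399, 6 of 6 libraries).

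The other 4 of the 8 largest rises did not pass the adjusted threshold, and in 3 of them a naive library without signal carried much of the value. Mrpl55, a large subunit protein with a bacterial counterpart, was at 5.57, 4.76, 0.00 and 5.05 in naive microglia and at 5.53 to 6.64 in EAE-vehicle, a log2 fold change of 2.16 ± 0.81 (limma, adjusted p = 0.208, 6 of 6 libraries) that was 0.87 without naive microglia 3. Mrps9, at the small subunit head, was at 4.15, 4.31, 4.28 and 0.00 in naive microglia and at 4.53 to 5.37 in EAE-vehicle. Its log2 fold change of 1.79 ± 0.71 (limma, adjusted p = 0.249, 6 of 6 libraries) became 0.73 without naive microglia 4, and the call was lost. Mrpl34, a short protein with a bacterial counterpart, was at 4.23, 5.33, 3.89 and 0.68 in naive microglia, without signal in the last, and at 4.72 to 5.91 in EAE-vehicle. Its log2 fold change of 1.76 ± 0.65 (limma, adjusted p = 0.194, 6 of 6 libraries) became 0.81 without naive microglia 4, and the call held. Mrps16, a small subunit protein with a bacterial counterpart, was at 5.26, 4.11, 2.38 and 4.09 in naive microglia and at 4.70 to 6.25 in EAE-vehicle, with signal in each library and a log2 fold change of 1.73 ± 0.49 (limma, adjusted p = 0.0681, 6 of 6 libraries).

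**Figure D3:**
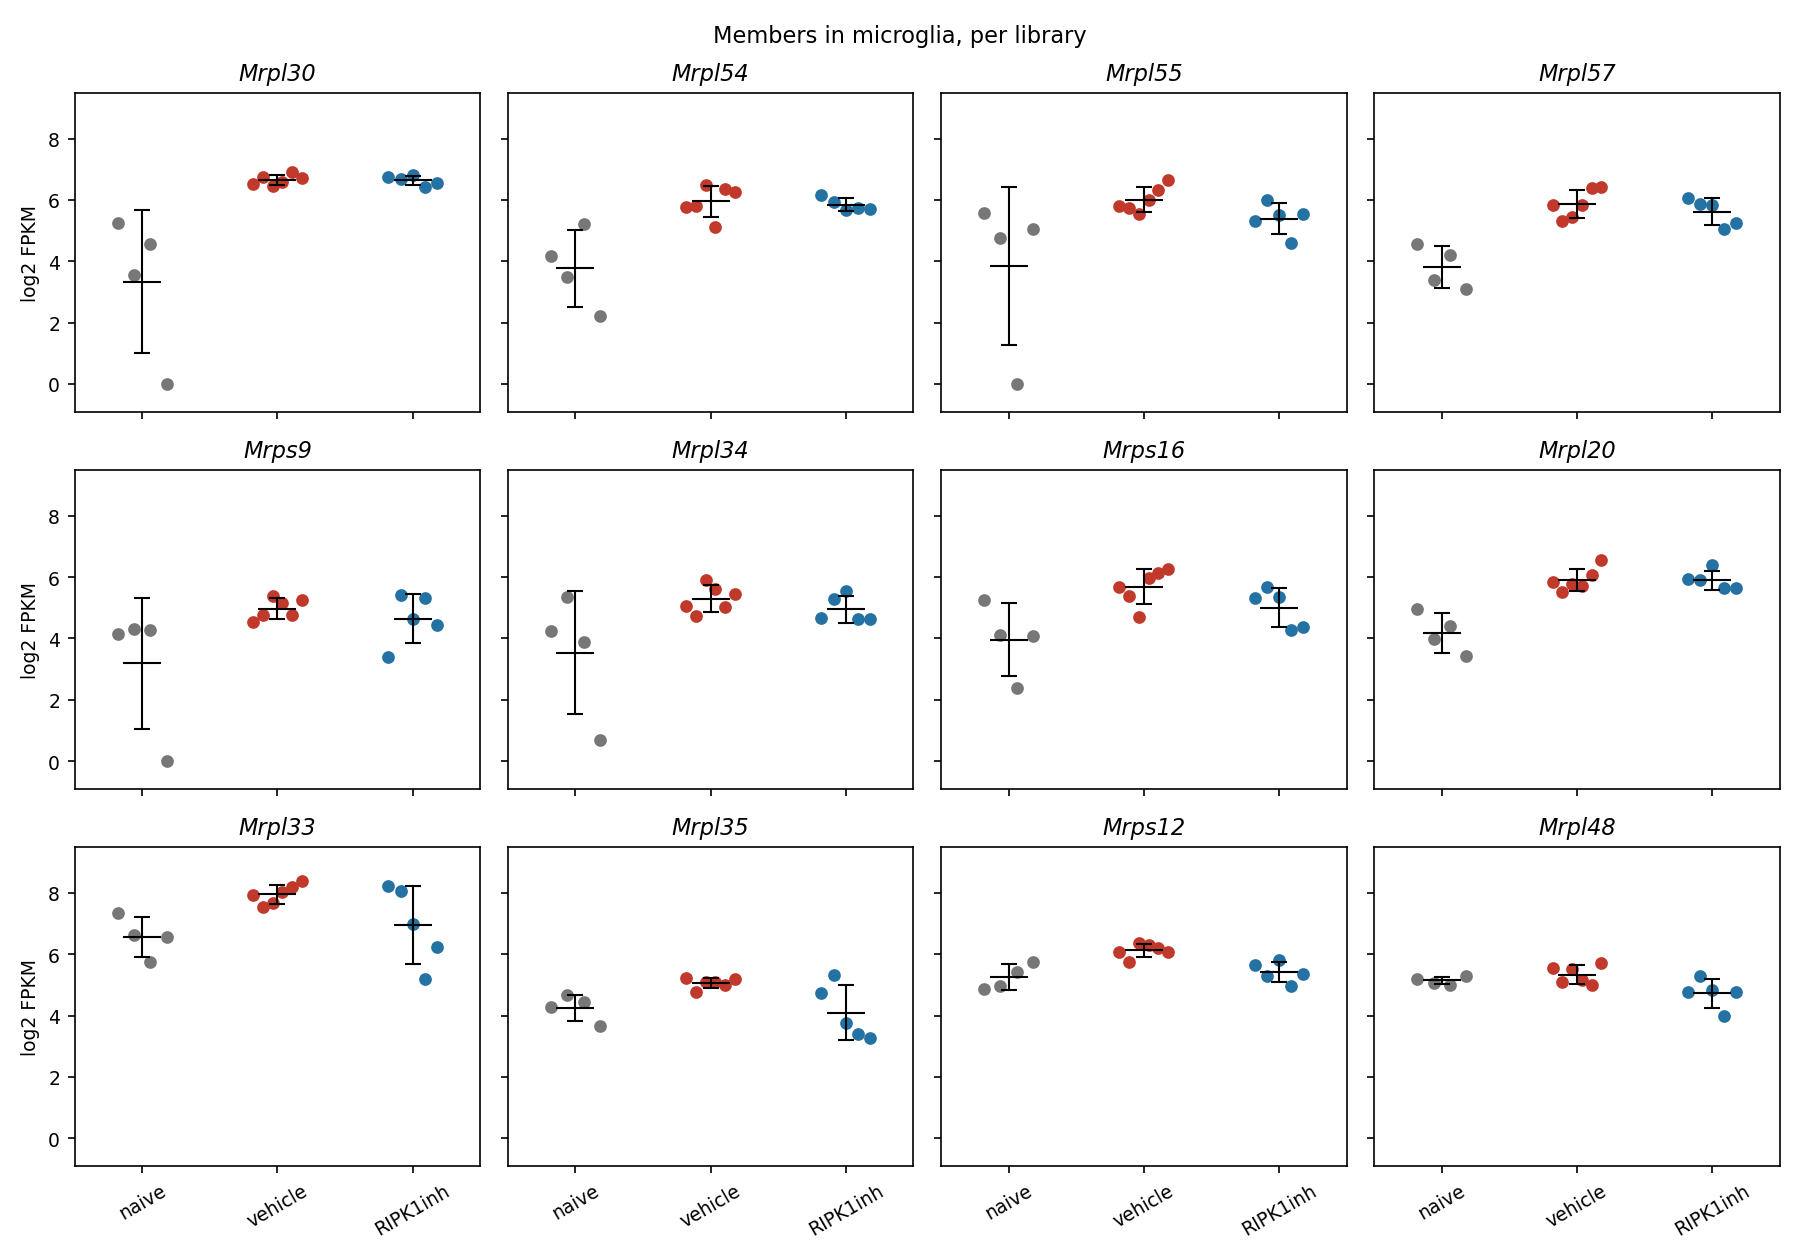
Log2 FPKM per library in naive, EAE-vehicle and EAE-RIPK1inh microglia for the 8 members with the largest EAE rises and the 4 called lower with the inhibitor, with group means and SD in black. Naive libraries at zero stand apart for Mrpl30, Mrpl55 and Mrps9, and the EAE-RIPK1inh libraries spread widely for Mrpl33 and Mrpl35.

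Members whose symbol hides their place or role moved in part. Mrpl12, a stalk protein known also to bind the mitochondrial RNA polymerase, rose by a log2 fold change of 0.98 ± 0.36 (limma, adjusted p = 0.188, 5 of 6 libraries), and the call was lost at 0.66 without naive microglia 3. Mrps36 rose by 0.60 ± 0.25 (limma, adjusted p = 0.284, 6 of 6 libraries), and its call was lost, at 0.47 to 0.57, without naive microglia 1 or 3 or EAE-vehicle microglia 3 or 6. 6 pseudogenes of Mrps36 are in the table. Of the 3 Mrps18 paralogues, Mrps18c rose by 1.13 ± 0.39 (limma, adjusted p = 0.151, 6 of 6 libraries), while Mrps18b stood at 0.39 ± 0.29 and Mrps18a at 0.28 ± 0.32, neither called. Mrps30 (0.88 ± 0.86) and Mrpl58, a peptidyl-tRNA hydrolase that became a ribosomal protein (0.95 ± 0.66), were not called.

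Other genes moved in the same EAE microglia libraries, and their part in the members' rises was not tested. 8 of 10 proliferation markers rose, and the list's mean was 2.22 to 2.58 in naive and 3.58 to 5.17 in EAE-vehicle microglia. 7 of 10 microglia markers fell and 1 rose, with list means of 8.65 to 9.12 in EAE-vehicle. 2 of 9 monocyte and neutrophil markers rose, with list means of 1.92 to 5.83 in naive and 2.47 to 6.62 in EAE-vehicle, and Ccr2 was without signal in each naive library. In bulk samples a change in which cells were sorted and a change in RNA per cell cannot be told apart.

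With the inhibitor, 4 members were lower in EAE-RIPK1inh than in EAE-vehicle microglia (5.13%): Mrpl33, Mrpl35, Mrps12 and Mrpl48. Of all genes, 0.701% were called lower and 1.06% higher, and of those with a mean of at least 1, 1.62% lower and 2.02% higher. None of the members was called higher. 63 of 78 lay below zero, with a median log2 fold change of -0.24, against 0.02 over genes with a mean of at least 1. No member passed an adjusted p of 0.05 in limma (smallest 0.93), and 4 had an unadjusted p under 0.05. With library quality weights 30 members were lower (median -0.58), where 4.27% of all genes were. That fit weighted EAE-RIPK1inh microglia 4 and 5 (3.51 and 4.39) and EAE-vehicle microglia 5 and 6 (2.88 and 2.93) most. The other EAE microglia had weights of 0.302 to 1.36. Over all members, these inhibitor libraries had the lowest means of their group (4.59 and 4.64). These vehicle libraries had the highest of theirs (5.28 and 5.40). Without weights the count was 2 to 8 with a library left out, 6 without naive microglia 4, 8 without EAE-RIPK1inh microglia 1, 7 without number 2 of that group, and 2 without EAE-vehicle microglia 1 or 6 or EAE-RIPK1inh microglia 4. 3 of the 4 were among the 29 that rose in EAE, and 27 of the 29 lay below zero, but both comparisons use the same EAE-vehicle libraries. The like shares among all genes that rose in EAE were not counted.

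Mrps12 had the least overlap. Its EAE-RIPK1inh microglia were at 5.66, 5.29, 5.80, 4.97 and 5.36, and 1 of them lay above the lowest EAE-vehicle value of 5.74. The log2 fold change was -0.70 ± 0.21 (exact permutation p = 0.00649, two-sided, limma adjusted p = 0.93), with 5 of 5 libraries below the EAE-vehicle mean, and the call held with any library left out. Mrpl35, with a bacterial counterpart in the large subunit (chromosome 6, 71812997-71826969, minus strand), was at 4.72, 5.31, 3.76, 3.40 and 3.28 in EAE-RIPK1inh, against 4.75 to 5.21 in EAE-vehicle and 4.27, 4.66, 4.43 and 3.66 in naive microglia. Its log2 fold change was -0.96 ± 0.34 (exact permutation p = 0.0325, limma adjusted p = 0.93, 4 of 5 libraries). The low values came from 3 libraries, and libraries 1 and 2 stayed near the EAE-vehicle level.

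Mrpl33, whose bacterial counterpart lies near the exit site for tRNA (chromosome 5, 31596935-31664384, plus strand), showed the same split of libraries. It was at 8.24, 8.05, 6.99, 5.20 and 6.23 in EAE-RIPK1inh, 7.53 to 8.39 in EAE-vehicle and 7.34, 6.62, 5.76 and 6.54 in naive microglia, a log2 fold change of -1.01 ± 0.47 (exact permutation p = 0.0909, limma adjusted p = 0.93, 3 of 5 libraries). The call was lost without any of 11 libraries in turn (naive 2 or 4, any EAE-vehicle library, or EAE-RIPK1inh 3, 4 or 5), at -1.09 to -0.57. Mrpl33 is marked as confounded and overlaps Gm43809 on its own strand and Rbks on the other. Mrpl48, of the central protuberance (chromosome 7, 100545751-100608301, minus strand), was at 4.76, 5.29, 4.83, 3.98 and 4.77 in EAE-RIPK1inh and at 4.98 to 5.71 in EAE-vehicle. Its log2 fold change was -0.61 ± 0.22 (exact permutation p = 0.0195, limma adjusted p = 0.93, 5 of 5 libraries). The call of Mrpl48 was lost, at -0.57 to -0.42, without EAE-vehicle microglia 1, 3 or 6 or EAE-RIPK1inh microglia 4, and Mrpl48 was not among the members that rose in EAE.

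The EAE-RIPK1inh microglia differed among themselves in other genes, whose part in these values was not tested. Library 3 held the highest list means of the microglia libraries for monocyte and neutrophil markers (7.53, against 2.47 to 6.62 in EAE-vehicle) and T cell markers (2.16, against 0.46 to 1.02). Libraries 4 and 5 held the highest means of the EAE microglia over microglia markers (9.54 and 9.78, against 8.65 to 9.12 in EAE-vehicle). Of these lists, 0 of 9 monocyte and neutrophil, 0 of 9 T cell and 1 of 10 microglia markers were called between the groups, that 1 higher, and it alone had an unadjusted limma p under 0.05.

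Against naive microglia, 11 members were higher in EAE-RIPK1inh (14.1%) and none lower, where 5.35% of all genes were called higher and 4.71% lower. Among genes with a mean of at least 1 the shares were 13.8% and 10.1%, so the members' share of higher calls was near that of genes at like levels. In limma, 11 members had an unadjusted p under 0.05, each of them higher, and the median was 0.30. 5 passed an adjusted p of 0.05 (6.41%), against 1.81% of all genes and 4.96% of those with a mean of at least 1 that did so and were higher: Mrpl20 (1.71 ± 0.30), Mrpl57 (1.80 ± 0.35), Mrpl51 (1.16 ± 0.23), Mrpl54 (2.07 ± 0.46) and Mrpl30 (3.30 ± 0.74). These 5 were above each naive library in 5 of 5 libraries. All 11 were among the 29 called in EAE-vehicle, which shares the naive libraries. The count of members called in either direction was 19 without naive microglia 1 and 14 without naive microglia 4.

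In astrocytes the members did not move one way. In EAE-vehicle against naive astrocytes, 5 were called higher (6.41%) and 3 lower (3.85%), where 2.69% of all 30718 genes were called higher and 4.01% lower, and 6.93% and 9.02% of the 11243 genes with a mean of at least 1. The median was -0.10 over the members and -0.09 over genes with a mean of at least 1, and 38 of 78 lay above zero. The members' median was 0.11 without EAE-vehicle astrocytes 1. No member passed an adjusted p of 0.05 in limma (smallest 0.261, and 8 with an unadjusted p under 0.05), where 0.342% of all genes and 0.934% of those with a mean of at least 1 did so and were higher. The higher members were 3 of the large subunit (Mrpl15, Mrpl41 and Mrpl21) and 2 of the small (Mrps6 and Mrps16), and the lower ones were Mrpl38, Mrpl2 and Mrps5. The count of higher members was 9 with library quality weights (median 0.21), where 5.42% of all genes were called higher, 2 without naive astrocytes 4 and 3 without EAE-vehicle astrocytes 1, 3, 5 or 6. Without the libraries of little signal it was 4, with 2 lower.

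The subunit means in astrocytes overlapped between groups. The large subunit mean was 4.91 ± 0.09 in naive (n = 4), 4.88 ± 0.49 in EAE-vehicle (n = 6) and 4.99 ± 0.36 in EAE-RIPK1inh astrocytes (n = 5), and the small subunit mean was 4.98 ± 0.09, 4.74 ± 0.56 and 4.90 ± 0.38. EAE-vehicle astrocytes ran from 4.16 to 5.39 for the large and from 3.94 to 5.38 for the small subunit. The large minus small difference was -0.07 ± 0.10, 0.14 ± 0.20 and 0.09 ± 0.21 in the same order.

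Mrpl21, a large subunit protein with a bacterial counterpart (chromosome 19, 3282901-3292837, plus strand) and Mrpl38 were the called members whose naive and EAE-vehicle astrocytes did not overlap. Mrpl21 was at 4.92, 5.22, 5.24 and 5.10 in naive astrocytes and at 5.56 to 6.37 with a median of 5.91 in EAE-vehicle, a log2 fold change of 0.81 ± 0.33 (exact permutation p = 0.00476, the smallest that 4 against 6 libraries can give, limma adjusted p = 0.565, 6 of 6 libraries). In EAE-RIPK1inh astrocytes it was at 4.72, 5.12, 4.79, 5.70 and 4.27, a log2 fold change of -1.01 ± 0.31 against EAE-vehicle (exact permutation p = 0.00433, limma adjusted p = 0.84, 5 of 5 libraries below the EAE-vehicle mean). 1 library of the 5 overlapped the EAE-vehicle range, and this second call held with any library left out. The first was lost, at 0.72 to 0.80, without naive astrocytes 1 or 4 or EAE-vehicle astrocytes 5. The gene overlaps Ighmbp2 on the other strand.

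Mrpl38, of the central protuberance (chromosome 11, 116131817-116138868, minus strand), fell in EAE. It was at 4.61, 4.46, 5.39 and 4.91 in naive astrocytes and at 0.00, 0.00, 3.58, 1.07, 3.68 and 3.98 in EAE-vehicle, without signal in the first 2, a log2 fold change of -2.79 ± 0.85 (exact permutation p = 0.0286, limma adjusted p = 0.261, 6 of 6 libraries below). In EAE-RIPK1inh it was at 3.73, 3.42, 3.53, 5.65 and 3.51, which overlaps EAE-vehicle, with a log2 fold change of 1.92 ± 0.80 (exact permutation p = 0.117, limma adjusted p = 0.84). That call was lost, at 1.49 to 1.72, without EAE-vehicle astrocytes 1, 2 or 4 or EAE-RIPK1inh astrocytes 4.

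Mrps5, a small subunit protein near the messenger RNA entry with a bacterial counterpart (chromosome 2, 127587222-127606829, plus strand), fell as well; 1 pseudogene of it is in the table. It was at 3.25, 4.97, 4.74 and 4.99 in naive astrocytes and at 0.11 (without signal), 0.17, 1.27, 2.81, 4.04 and 3.64 in EAE-vehicle, a log2 fold change of -2.48 ± 0.78 (exact permutation p = 0.0333, limma adjusted p = 0.292, 6 of 6 libraries). In EAE-RIPK1inh it was at 4.43, 3.77, 3.60, 3.07 and 3.60, a log2 fold change of 1.69 ± 0.73 (exact permutation p = 0.0931, limma adjusted p = 0.84), lost in 7 of 15 leave-one-out fits at 1.31 to 1.71 (EAE-vehicle 1, 2 or 3, or EAE-RIPK1inh 1, 2, 3 or 5). Mrpl2, next to the peptidyl transferase centre (chromosome 17, 46646229-46650139, plus strand), was at 4.55, 6.21, 5.32 and 5.63 in naive astrocytes, at 3.36 to 5.38 in EAE-vehicle and at 5.18, 5.34, 5.69, 5.84 and 5.35 in EAE-RIPK1inh. Its log2 fold changes were -1.06 ± 0.45 with EAE (exact permutation p = 0.0571, limma adjusted p = 0.599, 6 of 6 libraries) and 1.12 ± 0.42 with the inhibitor (exact permutation p = 0.0195, limma adjusted p = 0.84, 5 of 5 libraries). The EAE call was lost, at -1.10 to -0.80, without naive astrocytes 2, 3 or 4 or EAE-vehicle astrocytes 1 or 3.

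The remaining rises in EAE astrocytes were those of Mrps6, Mrpl15, Mrpl41 and Mrps16. Mrps6, a small subunit protein with a bacterial counterpart, was at 7.20, 0.00, 7.04 and 5.95 in naive astrocytes, 6.96 to 7.91 in EAE-vehicle and 7.84, 8.84, 7.33, 7.76 and 8.18 in EAE-RIPK1inh. Its log2 fold change of 2.31 ± 1.03 with EAE (exact permutation p = 0.0238, limma adjusted p = 0.654, 6 of 6 libraries) was 0.63 without naive astrocytes 2, and the call was then lost, as it was without EAE-vehicle astrocytes 1, 2, 3, 5 or 6, at 2.20 to 2.39. Mrps6 was also the member called higher in EAE-RIPK1inh against naive astrocytes (1 of 78, 1.28%, at 2.94 ± 1.07), where 1.98% of all genes were called higher, 2.64% lower and 0.124% had an adjusted p under 0.05 and were higher. Among genes with a mean of at least 1 these shares were 4.46%, 5.35% and 0.338%. The count of members called in either direction was 5 without naive astrocytes 2, and 2 without naive astrocytes 3 or EAE-vehicle astrocytes 1. It was 7 without the libraries of little signal. Slc5a3, named after its values were seen, lies over Mrps6 on the same strand (chromosome 16, 92058322-92087473), and its EAE log2 fold changes were -0.50 ± 0.80 in astrocytes, not called, and -1.26 ± 0.44 in microglia, called lower.

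Mrpl15, a large subunit protein with a bacterial counterpart, was at 5.63, 2.41, 6.03 and 2.33 in naive and 5.53 to 6.66 in EAE-vehicle astrocytes (log2 fold change 1.78 ± 0.70, limma adjusted p = 0.524, 6 of 6 libraries). The call of Mrpl15 was lost without naive astrocytes 2 (1.22) or 4 (1.19). Mrpl41, a mitochondria-specific large subunit protein, was at 5.65, 6.97, 5.47 and 5.26 in naive and 5.97 to 8.46 in EAE-vehicle astrocytes (1.39 ± 0.50, limma adjusted p = 0.432, 6 of 6 libraries), and its call held with any library left out. Mrps16 was at 5.07, 3.83, 5.20 and 2.01 in naive and 4.45 to 5.79 in EAE-vehicle astrocytes (1.29 ± 0.60, limma adjusted p = 0.706, 6 of 6 libraries). Its call was lost in 10 of 15 leave-one-out fits, at 0.62 without naive astrocytes 4 and at 1.20 to 1.31 without naive 2, EAE-vehicle 1, 3, 4, 5 or 6, or EAE-RIPK1inh 3, 4 or 5. Mrpl41 and Mrps16 were the 2 members called higher in both cell types, out of 29 called in microglia and 5 in astrocytes. Of the 29, 1 was called lower in EAE astrocytes. The like overlap among all genes was not counted, so these numbers are not read as a trait of the members.

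With the inhibitor, 5 members were higher in astrocytes (6.41%) and 1 lower (1.28%), where 1.84% of all genes were called higher and 1.18% lower, and 3.52% and 2.70% of those with a mean of at least 1. The median was -0.00, and no member passed an adjusted p of 0.05 in limma (6 had an unadjusted p under 0.05). The EAE and inhibitor comparisons both use the EAE-vehicle libraries, and how often all genes were called in opposite directions was not counted. 4 of the 8 members called in EAE astrocytes were called in the other direction here (Mrpl38, Mrps5, Mrpl2 and Mrpl21). Beside these, Mrpl58 was at 5.66, 1.56, 5.43, 6.66, 5.83 and 5.27 in EAE-vehicle and at 7.43, 6.74, 6.03, 7.05 and 6.54 in EAE-RIPK1inh (log2 fold change 1.69 ± 0.74, exact permutation p = 0.0195, limma adjusted p = 0.84, 5 of 5 libraries). It became 0.99 without EAE-vehicle astrocytes 2, and the call was lost there and, at 1.52 to 1.74, without EAE-RIPK1inh astrocytes 1, 2, 4 or 5. Mrpl49, a mitochondria-specific large subunit protein, was at 3.27, 0.89, 3.10, 3.83, 4.61 and 4.77 in EAE-vehicle and at 5.67, 4.76, 5.18, 4.15 and 5.39 in EAE-RIPK1inh (1.61 ± 0.73, exact permutation p = 0.0303, limma adjusted p = 0.84, 5 of 5 libraries). Its call was lost without EAE-vehicle astrocytes 1, 2 or 3 or EAE-RIPK1inh astrocytes 1, 2, 3 or 5, at 1.11 to 1.68. The count of higher members was 1 without EAE-vehicle astrocytes 2, 1 without the libraries of little signal, 2 without EAE-vehicle astrocytes 1 or EAE-RIPK1inh astrocytes 1, 2 or 5, and 3 without EAE-RIPK1inh astrocytes 3 or 4.

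**Figure D4:**
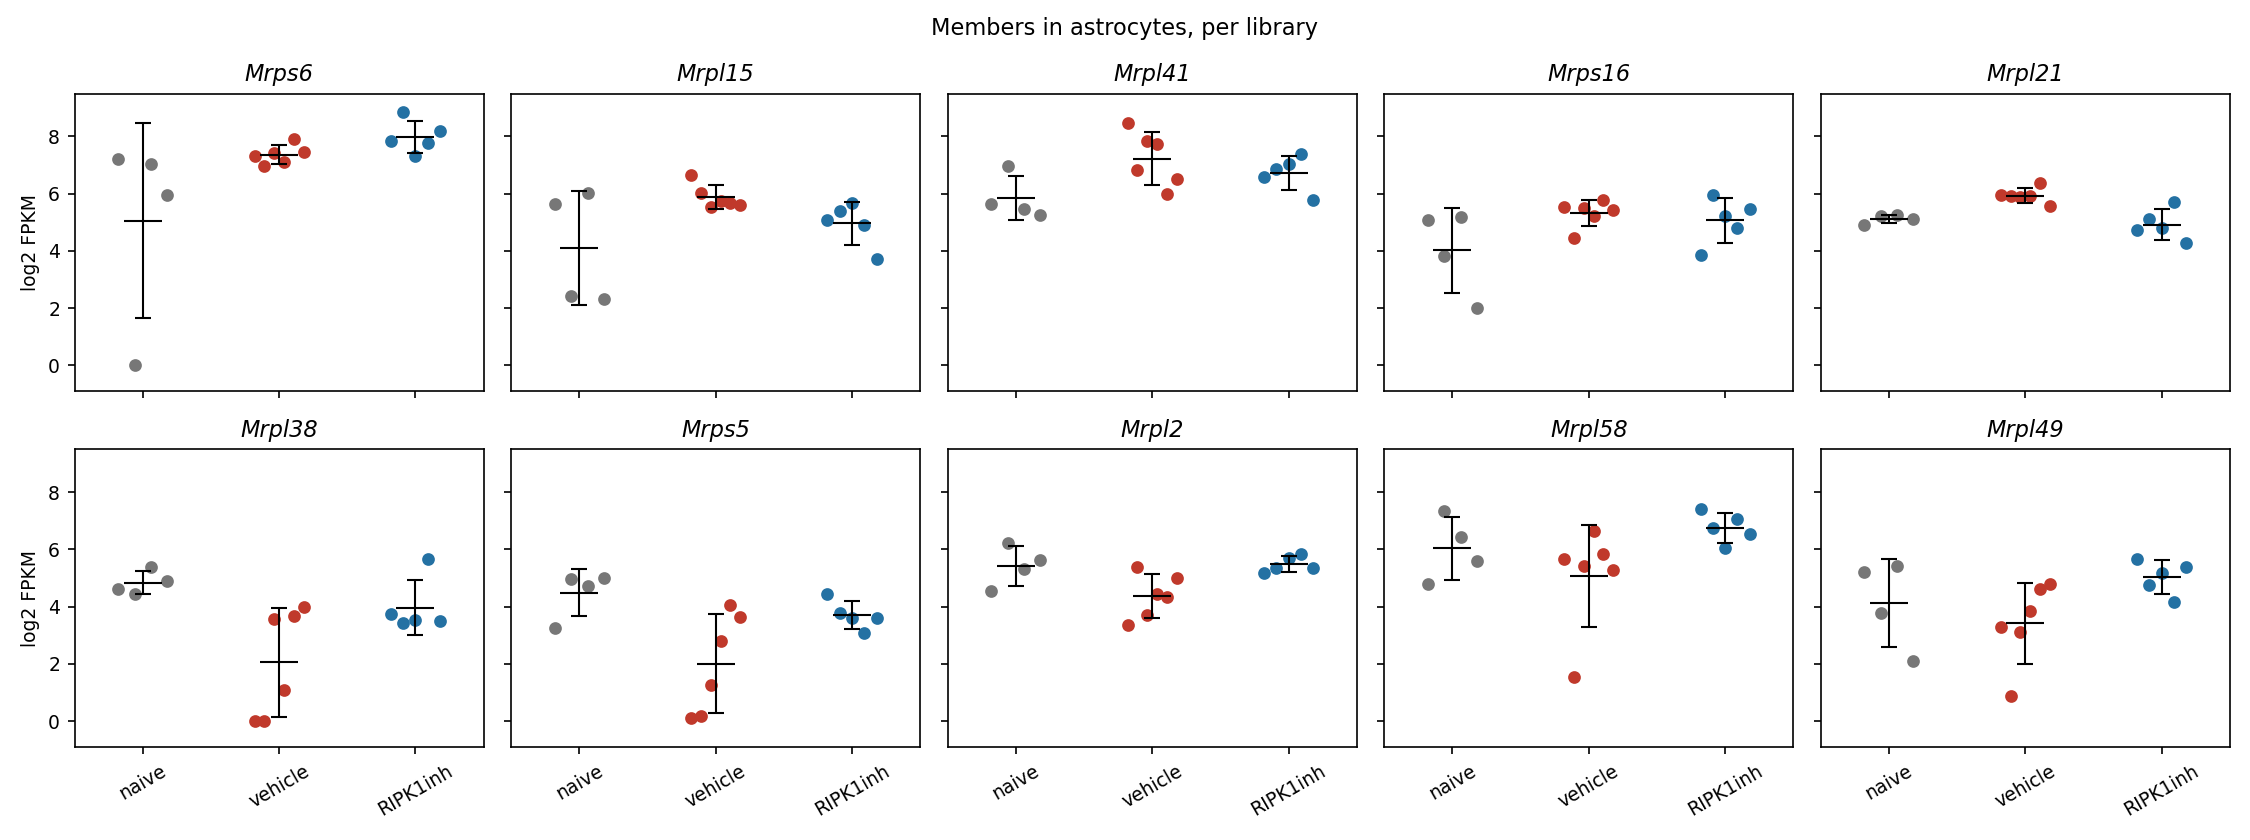
Log2 FPKM per library in naive, EAE-vehicle and EAE-RIPK1inh astrocytes for the 10 members called in either comparison of EAE-vehicle, with group means and SD in black. Mrpl21 is higher in each EAE-vehicle library than in the naive ones, and EAE-vehicle libraries at or near zero stand out for Mrpl38 and Mrps5.

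Markers of other cells moved in the EAE astrocyte libraries too, and their part in these values was not tested. 7 of 9 T cell markers rose, with list means of 0.34 to 1.27 in naive and 1.40 to 5.79 in EAE-vehicle, and Cd2, Cd3d and Lck were without signal in each naive library. 4 of 7 oligodendrocyte markers (list means 6.18 to 7.39 and 6.38 to 9.91) and 4 of 10 microglia markers rose, and 5 of 8 astrocyte markers fell and 1 rose (9.32 to 9.76 and 7.78 to 9.00). 5 of 8 monocyte and neutrophil markers tested rose (0.07 to 1.01 and 1.58 to 4.40), with Ly6g without signal in each library of both groups. With the inhibitor, 2 of 8 astrocyte markers were higher (8.59 to 9.60), and 0 of 9 T cell and 0 of 7 oligodendrocyte markers were called (0 with an unadjusted limma p under 0.05).

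The EAE effect was compared directly between the cell types. The median difference, microglia minus astrocytes, was 0.69 over the members and 0.17 over genes with a mean of at least 1. 17 of 78 had an unadjusted limma p under 0.05, 16 of them higher in microglia, where 9.06% of all genes and 17.4% of those with a mean of at least 1 had such a p in either direction. None passed an adjusted p of 0.05, where 0.982% of 30952 genes and 2.27% of those with a mean of at least 1 did. The smallest adjusted p was 0.0571, for Mrps5 (difference 3.72), and Mrpl30 had a difference of 4.76 ± 1.27 with an adjusted p of 0.0653 in limma. Both genes had no signal in naive microglia 4 and in EAE-vehicle astrocytes 1, both libraries of little signal. This fit was not repeated without them. For the inhibitor no member passed (smallest adjusted p 0.948 in limma, 3 with an unadjusted p under 0.05), and 0% of all genes did.

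Naive microglia were also compared with naive astrocytes. 7 members were lower in naive microglia than in naive astrocytes at an adjusted p under 0.05 in limma (8.97%), where 5.93% of all genes were lower and 5.94% higher, and 13.7% and 14.2% of those with a mean of at least 1. The members' share of lower genes was thus below that of genes at like levels, and no member was higher (17 had an unadjusted p under 0.05 in either direction). Of these, chosen here after their values were seen, Mrpl51 stood 2.05 lower, at 4.31 to 5.16 in microglia against 6.27 to 7.80 in astrocytes. Mrps36 (-1.64), Mrpl13 (-1.90), Mrpl18 (-1.19), Mrpl28 (-1.68), Mrps5 (-2.81) and Mrpl30 (-3.11) made up the rest. Mrps5 and Mrpl30 had no signal in naive microglia 4, a library of little signal, and this comparison was not repeated without it. Mrpl51 and Mrpl30 were also among the 6 past the adjusted threshold in EAE microglia, a comparison that uses the same naive microglia libraries.

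Across members, Mrpl42, a mitochondria-specific large subunit protein, was the highest in naive microglia (mean log2 FPKM 7.15) and in naive astrocytes (7.51). Mrpl33 (6.57) and Mrps18c (6.21) followed in microglia, and Mrps33 (7.35) and Mrpl28 (7.13) in astrocytes. The lowest were Mrps5 (1.68), Mrpl23 (2.30) and Mrps23 (2.52) in naive microglia, and Mrpl1 (1.46), Mrpl23 (1.49) and Mrpl19 (2.08) in naive astrocytes. The median of the members' means was 4.60 in naive, 5.32 in EAE-vehicle and 5.00 in EAE-RIPK1inh microglia, and 5.06, 4.84 and 5.02 in astrocytes. The median SD of a member between libraries was 0.84, 0.43 and 0.60 in microglia and 0.92, 1.07 and 0.78 in astrocytes, so neighbours in this order mostly differ by less than their spread.

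Other genes of mitochondrial translation were read from lists. Of 5 mitoribosomal proteins with other symbols, 2 rose in EAE microglia: Dap3, a GTP-binding protein of the small subunit (2.15 ± 0.61, adjusted p = 0.0721 in limma), and Gadd45gip1, of the large subunit (0.88 ± 0.28). Gadd45gip1 was lower with the inhibitor (-0.64 ± 0.27). None of the 5 was called in EAE astrocytes (0 with an unadjusted limma p under 0.05). Of 24 assembly and rRNA modification factors, 3 rose and 2 fell in EAE microglia and 3 fell in EAE astrocytes. Mpv17l2, an assembly factor, rose in microglia (1.19 ± 0.34) and fell in astrocytes (-1.89 ± 0.43), where it was higher with the inhibitor (1.28 ± 0.40). Slirp, which stabilises mitochondrial messenger RNAs, rose in EAE microglia (1.27 ± 0.39) and was lower with the inhibitor (-0.83 ± 0.37), while Mtg2, a GTPase of large subunit assembly, fell (-1.57 ± 0.48). Noa1, a GTPase of small subunit assembly, fell in astrocytes (-2.75 ± 0.94), as did Rpusd4, a pseudouridine synthase (-1.80 ± 0.83). None of these passed an adjusted p of 0.05.

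Translation factors and tRNA synthetases showed few calls. 1 of 13 translation factors rose in EAE microglia (Gfm1, an elongation factor, 1.30 ± 0.46) and 1 fell (Gfm2, a recycling factor, -0.64 ± 0.26), and none was called in EAE astrocytes (0 with an unadjusted limma p under 0.05). Of 20 mitochondrial tRNA synthetases and charging enzymes, 2 rose and 1 fell in EAE microglia: Fars2 (1.74 ± 0.54), Ears2 (1.33 ± 0.58) and Aars2 (-1.22 ± 0.51). In EAE astrocytes Yars2 rose (2.48 ± 0.61) while Qrsl1 (-3.15 ± 0.77) and Aars2 (-2.08 ± 0.85) fell, and the inhibitor went with a lower Yars2 (-3.16 ± 0.57) and a higher Qrsl1 (2.30 ± 0.72). No gene of the table passed an adjusted p of 0.05 with the inhibitor in astrocytes (smallest 0.84 in limma). Of 13 regulators of mitochondrial transcription and biogenesis, Pprc1 rose in microglia (1.21 ± 0.39) and Polrmt, the mitochondrial RNA polymerase, fell in astrocytes (-3.17 ± 0.90).

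The messenger RNAs that the mitoribosome translates were read last. 9 of the 13 protein-coding genes of the mitochondrial genome rose with EAE in microglia (median 1.28 on the log2 scale), with each of the 13 above zero and 5 at an adjusted p under 0.05 in limma. Of these, mt-Nd6 rose by 2.23 ± 0.38 (adjusted p = 0.00298), mt-Co1 by 1.60 ± 0.28 (adjusted p = 0.00317) and mt-Nd5 by 1.53 ± 0.26 (adjusted p = 0.00284). The strand setting was not given, so these values, that of mt-Nd6 among them, may include reads of the opposite strand. In EAE astrocytes 2 of 13 rose, mt-Co2 (1.20 ± 0.38) and mt-Atp6 (1.29 ± 0.43), with a median of 0.64. With the inhibitor mt-Cytb was lower in microglia (-1.22 ± 0.54), where no gene of the table was lower at an adjusted p under 0.05 in limma. None of the 13 was called in astrocytes (0 with an unadjusted limma p under 0.05).

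**Figure D5:**
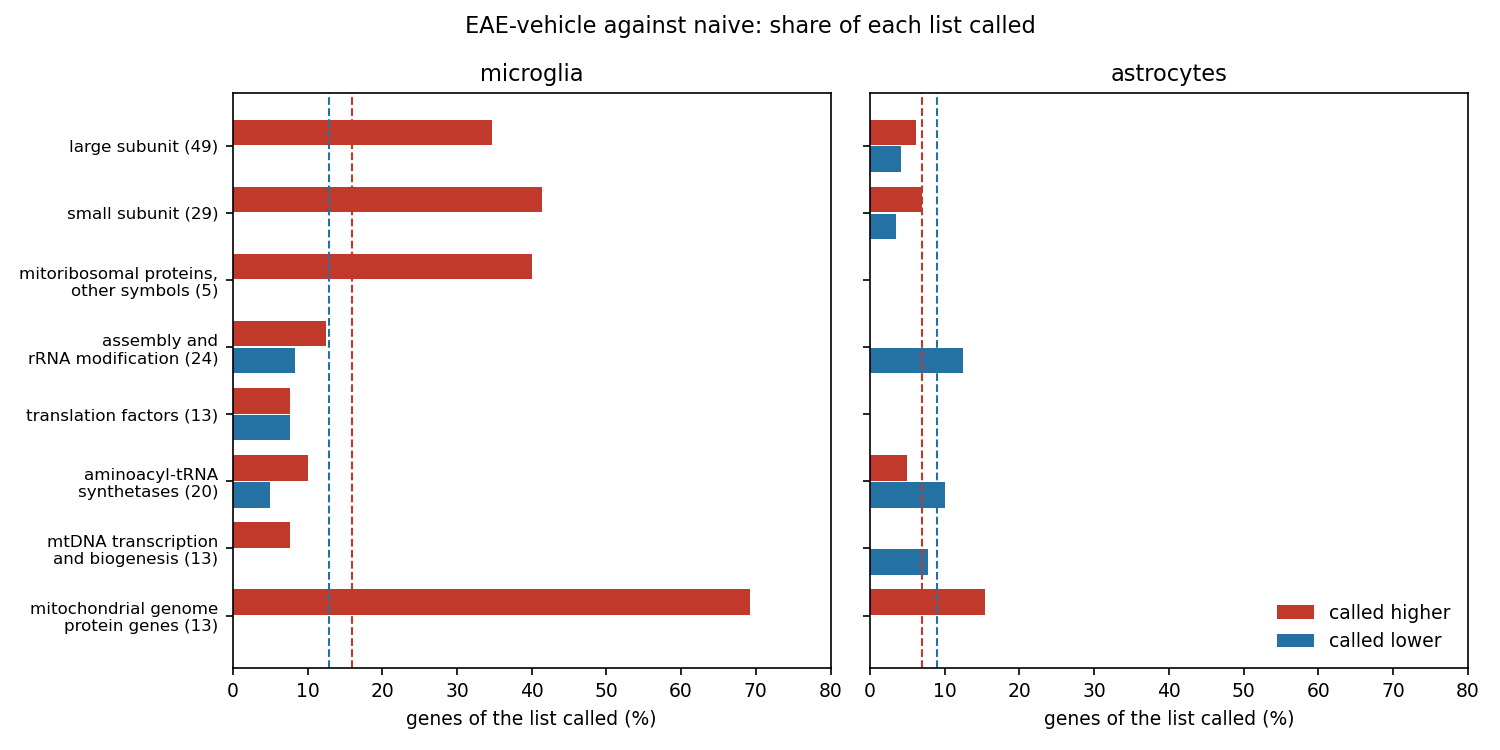
Share of each list (number of genes in brackets) called higher (red) or lower (blue) in EAE-vehicle against naive, in microglia and astrocytes, with dashed lines at the shares among genes with a mean log2 FPKM of at least 1 (16.0% and 12.9% in microglia, 6.93% and 9.02% in astrocytes). In microglia the longest bar is that of the mitochondrial genome's protein-coding genes (9 of 13 higher), followed by the small subunit (12 of 29).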

How the data were processed

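RNA was sequenced from microglia and astrocytes sorted from the spinal cord, 15 libraries of each. Per the labels, cDNA was primed with oligo(dT) and fragmented by tagmentation. The deposited values are log2 FPKM, which the authors made with OmicSoft Array Studio and brought to a common distribution across the 30 libraries by quantile normalization; the table's name gives a minimum FPKM of 1. The aligner, the annotation release, the strand setting and the offset before the logarithm were not given in the sources used here. Because the table holds no counts, depth is unknown and no counting error can be given. Values of genes without signal are ranks, not levels. They ran up to 2.74 in EAE-vehicle astrocytes 1, 1.74 in naive microglia 4, 1.69 in naive astrocytes 2 and 1.18 in EAE-RIPK1inh astrocytes 5. In the other libraries they ran to 0.87 or less. Exon lengths and positions came from the deposited annotation, and the positions of 78 of 78 members matched GENCODE M21 on GRCm38.

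Samples were grouped by their labels, and the replicates of a group are separate mice. limma 3.58.1 in R 4.3.3 (lmFit, eBayes with trend) was fitted to all 28958 genes in microglia and 30718 in astrocytes, with the 3 groups of a cell type together. The same limma steps were first tested on simulated data, for EAE-vehicle against naive only. The methods of the study state a paired comparison for each gene, but the labels do not say that numbers pair mice, so the fit had no block. A call needed a fold change over 1.5 and p under 0.05, and p was adjusted by Benjamini-Hochberg over all genes. Differences between cell types came from a fit of 30 libraries and 30952 genes. The study sorted both cell types from the same mice, but the labels do not say which libraries share a mouse. That fit therefore treated the libraries as independent. Exact two-sided permutation tests used all 210, 462 or 126 assignments of libraries to the groups (smallest p 0.00476, 0.00216 and 0.00794). Figures used Python 3.11.15, pandas 2.3.3, numpy 2.4.6 and matplotlib 3.10.9. Alternatives were a minimum mean of 1, values without signal set to 0, a further 1 added on the linear scale, median centring, quality weights, the number of genes with signal as a covariate, the replicate block, each library left out and, after the data were seen, leaving out the 4 libraries with under 10000 genes with signal and keeping members not marked as confounded.

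The members and lists were chosen with earlier results of these data known. Named genes were the 8 largest rises and 5 largest falls among called members in EAE, the 6 largest in each direction with the inhibitor, the 3 highest and 3 lowest naive means per cell type, Mrps18a, Mrps18b, Mrps18c, Mrps30, Mrps36, Mrpl12 and Mrpl58, up to 5 members past an adjusted p of 0.05 for a difference between cell types, and up to 3 called genes per pathway list.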

Additional observations from a re-analysis of the deposited data

Results flagged for a closer look

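The levels of the named members and the subunit means were searched in each group of 4 to 6 libraries, 222 groups of values in all. In 21 of them a library lay far from the others by Dixon's criterion, where chance gives about 1 in 20. Values are log2 FPKM, with the nearest other library in brackets. EAE-vehicle astrocytes 1, a library of little signal, was lowest for Mrpl12 at 3.27 (5.79), Mrpl20 at 0.213 (4.89), Mrpl30 at 0.0 (4.85), Mrps23 at 0.0 (3.30) and Mrps9 at 0.0 (3.87). EAE-vehicle astrocytes 2 was lowest for Mrpl55 at 4.17 (5.72) and Mrpl58 at 1.56 (5.27). EAE-RIPK1inh astrocytes 5 was lowest for Mrpl19 at 0.21 (2.85) and Mrps18b at 0.0052 (3.69), and EAE-RIPK1inh astrocytes 4 was highest for Mrpl38 at 5.65 (3.73). Naive astrocytes 1 was lowest for Mrpl30 at 5.42 (6.75) and Mrps5 at 3.25 (4.74), and naive astrocytes 2 was highest for Mrpl33 at 7.91 (5.87).

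In microglia, naive library 4, also of little signal, was lowest for Mrpl38 at 2.00 (4.22), Mrps5 at 0.0791 (2.06), Mrps6 at 0.0038 (3.22) and Mrps9 at 0.0 (4.15). Naive microglia 3 was lowest for Mrpl55 at 0.0 (4.76). EAE-vehicle microglia 3 was lowest for Mrpl1 at 2.60 (3.66) and Mrps18a at 5.20 (5.93), and EAE-vehicle microglia 5 for Mrpl38 at 3.17 (4.31).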

How the results depend on the processing

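The count of members higher in EAE microglia was 21 to 34 with a library left out and 22 to 33 under the other alternatives, and their median log2 fold change 0.48 to 0.75. No called value changed direction. Of the values of named members under alternatives, 1100 kept their call or its absence, 107 lost a call and 12 gained one. The counts of members called moved as follows, and the cause was not tested. With a minimum mean of 1, 1 was lower in EAE microglia, 3 were higher in EAE astrocytes, 2 passed for the difference between cell types in EAE and 11 for naive microglia against naive astrocytes. With median centring, 3 were higher in EAE astrocytes. With quality weights, 30 were lower and 1 higher with the inhibitor in microglia (median -0.58), where 4.27% of all genes were lower. The same weights gave 9 higher in EAE astrocytes, and 3 higher and 3 lower with the inhibitor in astrocytes. In EAE-RIPK1inh against naive astrocytes they gave 8 called in either direction, higher and lower counted together. With the number of genes with signal as a covariate, 2 were lower with the inhibitor in astrocytes. Without the libraries of little signal, 1 was higher with the inhibitor in astrocytes, and 7 were called in either direction in EAE-RIPK1inh against naive astrocytes. With a library left out, 0 to 2 were lower in EAE microglia and 2 to 8 lower with the inhibitor in microglia. In astrocytes, 2 to 5 were higher in EAE and 1 to 5 higher with the inhibitor. Called in either direction were 9 to 19 in EAE-RIPK1inh against naive microglia and 1 to 5 in EAE-RIPK1inh against naive astrocytes. The change of the large minus small subunit mean with EAE in microglia was 0.06 by place and 0.13 over members not marked as confounded.

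With the replicate block, 22 members were higher and 1 lower in EAE microglia, 2 lower with the inhibitor in microglia and 2 lower with it in astrocytes. The block gave 2 called in either direction in EAE-RIPK1inh against naive astrocytes. The numbers were not taken to pair the mice: of 33 pairs of libraries with the same number, 3 had deviations from the group means that correlated over 0.1 (range -0.156 to 0.144). Depth was not given, so a member listed at 0 cannot be told from one missed in a library of few genes.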
